A study of Homo sapiens with 22 samples.

Results

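Lines of diffuse large B-cell lymphoma of the activated B-cell type (DLBCL ABC) were compared with lymphoma lines of germinal-centre origin, all of which had received the demethylating agent 5-aza-2'-deoxycytidine (aza) together with trichostatin A (TSA). The ABC lines were Ocily3, Ocily10 and HLY-1 (n = 3). The germinal-centre-derived lines were the Burkitt lymphoma (BL) lines Ramos, Raji and BL41, the follicular lymphoma (FL) lines SC-1, K422 and ROS-50, and the germinal centre B-cell-like (DLBCL GCB) lines Sudhl4 and Sudhl6 (n = 8). These 11 treated arrays were chosen by line and treatment, with no use of expression values, from the 22 arrays of the study. The other 11 arrays hold the same lines without the drugs. All treated cultures grew for 72 h with aza added every 24 h and TSA added for the last 12 h, and no culture received 1 of the drugs alone. Each line and condition has 1 array, so that the lines were the replicates and the p-values measure the spread between lines. The lymphoma types were taken from the methods of the study, and an established line stands for the 1 tumour it came from.

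Cell of origin is the stage of B-cell development that a lymphoma resembles. Germinal centre B cells carry CD10 and BCL6 and mutate their immunoglobulin genes, whereas ABC lymphoma resembles a B cell on its way to a plasma cell, with IRF4, NF-kB target genes and cytokine signalling through JAK and STAT3. Aza is built into DNA and traps DNA methyltransferases, so that methylation is lost as cells divide. TSA blocks histone deacetylases and raises histone acetylation. The question was which differences between the cells of origin remained in cultures exposed to both drugs.

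The Applied Biosystems Human Genome Survey Microarray holds 32878 elements, of which 17073 name exactly 1 gene here (15461 genes). Values are normalized signals on the log2 scale, on which a difference of 1 is a 2-fold change, and the median of every array is 10.18. A signal above this median is called detected. The 75th percentile of the signal before normalization was between 2901 and 7148 on the treated ABC arrays and between 3751 and 15058 on the treated germinal-centre-derived arrays, and HLY-1, Ocily10 and Sudhl4 were the lowest of the 11. The same lines had the highest scores on the first principal component of the treated arrays (19.6% of the variance), 136 for HLY-1, 116 for Ocily10 and 57.0 for Sudhl4, while the other 8 lines, Ocily3 among them, had negative scores. Ocily3 correlated at 0.937 with SC-1 (Pearson's r across elements, which share array effects and are not independent), while the 3 ABC arrays correlated with each other between 0.884 and 0.900. The medium was IMDM plus human plasma for Ocily3 and Ocily10. HLY-1 and all 8 germinal-centre-derived lines were kept in RPMI plus fetal calf serum. Medium, signal distribution and cell of origin therefore overlap in part, and the main results are given with these factors below.

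The labels were set against marker genes. Of 5 measured B-cell markers, between 1 and 4 were detected on the treated ABC arrays and between 4 and 5 on the treated germinal-centre-derived arrays. HLY-1 was the array with 1 of 5. It had 10.84 for CD79A and 9.77 for CD79B, the signalling chains of the B-cell receptor, and 9.08 for CD22, an inhibitory co-receptor. CD79A was at least 13.56 on the germinal-centre-derived arrays. Of 14 T and NK cell markers, 3 to 5 were detected on ABC arrays and 2 to 4 on germinal-centre-derived arrays, with log2 summed signals of 14.33 to 15.29 and 13.99 to 15.90. GZMA, a granzyme of cytotoxic T and NK cells, had 14.40 in treated HLY-1 (15.45 untreated), 8.97 in Ocily3 and 9.29 in Ocily10, against 8.27 to 9.17 in the germinal-centre-derived lines. Of 9 myeloid markers the numbers were 1 to 4 in ABC and 2 to 9 in germinal-centre-derived lines, and of 8 fibroblast and endothelial markers 2 to 3 and 1 to 3. The log2 summed myeloid signal was 13.24 to 14.28 in ABC and 13.17 to 16.55 (median 13.62) in germinal-centre-derived lines. The myeloid markers MPO (13.81) and S100A8 (12.41) were highest in Ramos. The part of these signals in the results below was not tested.

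After aza/TSA, 25 elements passed the threshold between ABC and germinal-centre-derived lines (limma, adjusted p under 0.05 over all elements, two-sided), which is 0.076% of the elements tested, 12 higher in ABC (0.0365%) and 13 lower (0.0395%). Of these, 22 name a gene, 10 higher and 12 lower, and 3 are unnamed here. The groups did not overlap for any of the 25. Non-overlap by itself was found for 684 elements (2.08%), 333 higher (1.01%) and 351 lower (1.07%), and 2804 elements had an unadjusted p under 0.05. The counts depended on single lines and on the signal distribution. They were 40 higher and 37 lower without Ocily3, 5 and 8 without Ocily10, 30 and 17 without HLY-1, 26 and 14 without Raji, 21 and 19 without BL41, and 9 and 8 each without Ramos or ROS-50. With the signal set (HLY-1, Ocily10 and Sudhl4 against the rest) as a term in the fit, 3 were higher and 2 lower.

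**Figure D1:**
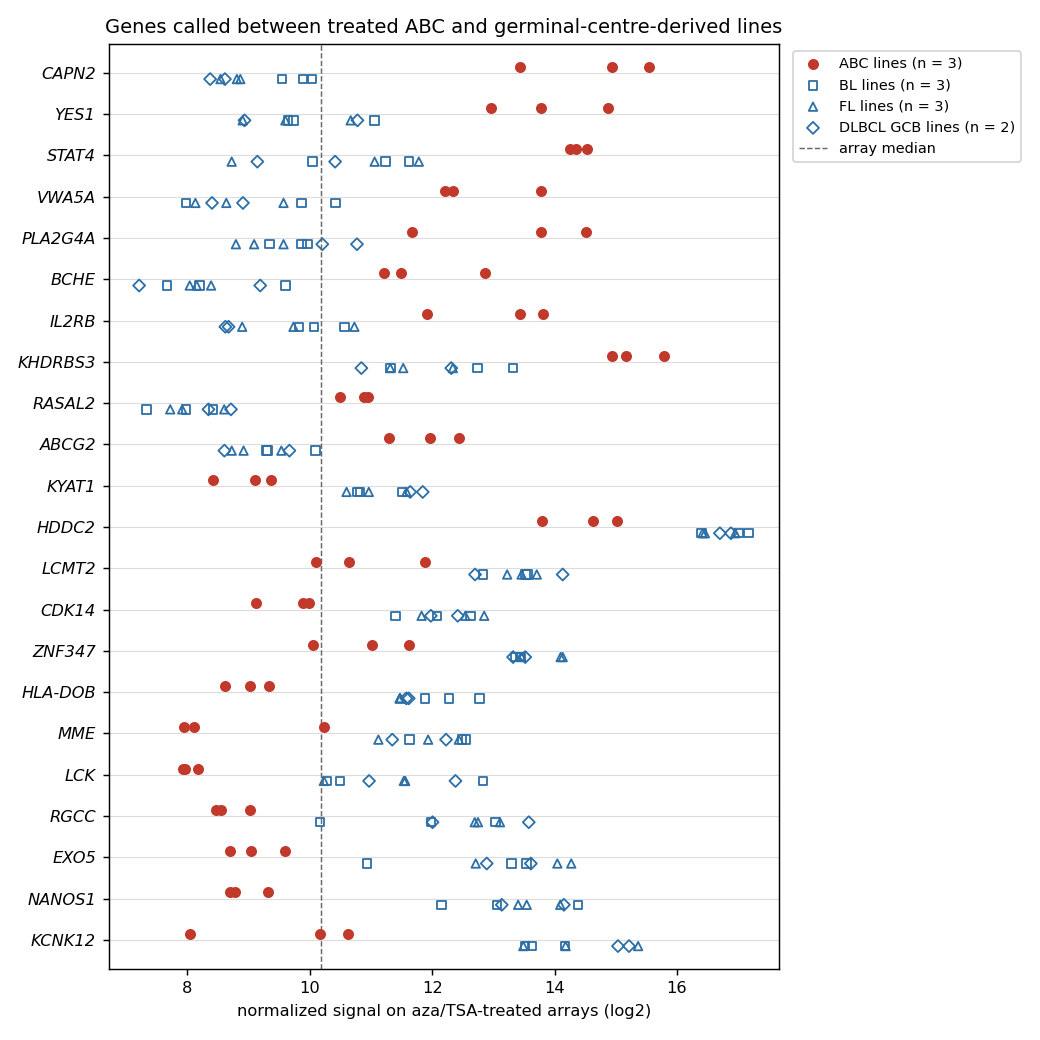
Normalized log2 signal (horizontal axis) of the 22 named genes that differed between treated lines, with ABC lines as filled red circles, germinal-centre-derived lines as open blue symbols by lymphoma type and the array median of 10.18 as a dashed line. The 3 ABC lines lie to the right of all 8 germinal-centre-derived lines in the upper 10 genes and to the left of them in the lower 12.

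CAPN2, the catalytic subunit of a calcium-activated calpain protease, had the largest difference among the genes past the threshold and higher in ABC. Its signal was 15.55 in Ocily3, 13.43 in Ocily10 and 14.95 in HLY-1, against 8.37 to 10.04 in the germinal-centre-derived lines (median 8.84). No germinal-centre-derived array had CAPN2 above the array median, and BL lines averaged 9.82, FL lines 8.74 and DLBCL GCB lines 8.49. In RNA of whole cultures, fewer expressing cells and less RNA per cell cannot be told apart. The difference was 5.56 (SE 0.50, adjusted p = 7.7e-04 from limma). CAPN2 stayed past the threshold with each of the 11 lines left out in turn and with the signal set as a term (6.04, adjusted p = 0.00225 from limma). It did not pass against BL lines alone or DLBCL GCB lines alone, where no element did. In fits with a single line in a group, only the difference is given. It was 6.40 in Ocily3 against the 7 lines outside the low signal set and 5.86 in HLY-1 against the 8 other lines in RPMI. For HLY-1 and Ocily10 against Sudhl4 it was 5.58. All these fits reuse the arrays on which CAPN2 was chosen.

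Kinases of the SRC family stood on both sides of the comparison. YES1, a broadly expressed member, had 12.96, 13.77 and 14.87 in Ocily3, Ocily10 and HLY-1, against 8.90 to 11.06 in the germinal-centre-derived lines (median 9.69). The difference was 3.95 (SE 0.54, adjusted p = 0.0157 from limma), and a second, dimmer element of YES1 differed by 4.30 (adjusted p = 0.0525). LCK, best known from T-cell receptor signalling, was lower in ABC. It had 7.96, 7.92 and 8.17 in Ocily3, Ocily10 and HLY-1, all below the array median, against 10.23 to 12.83 in the germinal-centre-derived lines (median 11.25), all above it. The difference was -3.27 (SE 0.54, adjusted p = 0.0419 from limma), and it passed the threshold in 4 of 11 fits with a line left out.

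Genes of cytokine signalling were among those higher in ABC. IL2RB encodes the beta chain shared by the receptors for interleukins 2 and 15, and had 13.82, 11.92 and 13.44 in Ocily3, Ocily10 and HLY-1, against 8.62 to 10.73 in germinal-centre-derived lines (median 9.78). The difference was 3.42 (SE 0.55, adjusted p = 0.032 from limma), and it passed the threshold in 4 of 11 fits with a line left out. STAT4, a transcription factor downstream of the interleukin-12 receptor, showed little spread in ABC, with 14.53, 14.35 and 14.24, against 8.72 to 11.78 in germinal-centre-derived lines (median 10.74, difference 3.87, SE 0.61, adjusted p = 0.0287 from limma). Among untreated arrays STAT4 had 11.10, 9.10 and 11.83 in ABC against 8.23 to 10.78 in germinal-centre-derived lines, and the groups overlapped. The mean response to the drugs was 3.70 in ABC and 1.12 in germinal-centre-derived lines, a difference in response that did not pass the threshold (2.58, adjusted p = 0.444).

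The other genes higher in ABC act in lipid, choline and drug metabolism, in RNA processing and in RAS signalling. PLA2G4A, the cytosolic phospholipase that releases arachidonic acid from membranes, had 13.78, 14.51 and 11.67 in Ocily3, Ocily10 and HLY-1 against 8.79 to 10.77 (median 9.72) in germinal-centre-derived lines. BCHE, a cholinesterase, had 11.22, 11.49 and 12.86 against 7.21 to 9.60 (median 8.17). KHDRBS3, an RNA-binding regulator of splicing, was bright in both groups, with 14.93, 15.17 and 15.80 in ABC against 10.84 to 13.32 (median 11.92). The differences of the 3 genes were 3.62, 3.55 and 3.33. ABCG2, a transporter that exports drugs from cells, had 11.29, 12.45 and 11.96 in ABC and was below the array median on all 8 germinal-centre-derived arrays (8.60 to 10.10). RASAL2, a GTPase-activating protein for RAS, was dimmer, with 10.50, 10.95 and 10.89 in ABC against 7.33 to 8.71. VWA5A had 12.34, 13.78 and 12.21 in ABC against 7.98 to 10.42. Their differences were 2.63, 2.65 and 3.79, and the adjusted p of these 6 genes ran between 0.0157 and 0.0268 (limma). PLA2G4A and KHDRBS3 passed in 7 of 11 fits with a line left out and the other 4 in 9 or 10. Element 236687 (3.99) and element 175820 (3.40) were also higher in ABC and are unnamed here.

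Among the genes past the threshold and lower in ABC, KCNK12 and NANOS1 had the largest differences. KCNK12, a potassium channel subunit, had 10.16, 8.05 and 10.62 in Ocily3, Ocily10 and HLY-1, against 13.49 to 15.37 in the germinal-centre-derived lines (median 14.18), a difference of -4.71 (SE 0.58, adjusted p = 0.00946 from limma). NANOS1, an RNA-binding repressor of translation known from germ cells, had 8.70, 8.77 and 9.32 in ABC, all below the array median, against 12.15 to 14.38 (median 13.47), a difference of -4.56 (SE 0.45, adjusted p = 0.00134 from limma). Both passed the threshold with each of the 11 lines left out in turn. NANOS1 also did so with the signal set as a term (-4.87, adjusted p = 0.00723), while KCNK12 did not (-4.77, adjusted p = 0.069).

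A surface peptidase and an antigen presentation gene were among those lower in ABC. MME encodes CD10, the membrane peptidase that marks germinal centre B cells. It had 8.10 in Ocily3, 7.94 in Ocily10 and 10.22 in HLY-1, against 11.12 to 12.55 in germinal-centre-derived lines (median 12.08), a difference of -3.21 (SE 0.50, adjusted p = 0.0278 from limma). HLA-DOB, a chain of the HLA-DO molecule that modulates peptide loading of class II proteins, had 9.34, 9.02 and 8.62 in ABC against 11.47 to 12.78 (median 11.60), a difference of -2.83 (SE 0.37, adjusted p = 0.0119 from limma). MME passed in 5 and HLA-DOB in 10 of 11 fits with a line left out.

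The remaining genes lower in ABC have roles in DNA repair, RNA modification, metabolism and the cell cycle. EXO5, a single-strand DNA exonuclease, had 9.59, 8.70 and 9.04 in ABC against 10.94 to 14.27 (median 13.42) in germinal-centre-derived lines, and RGCC, a regulator of the cell cycle, had 8.55, 9.02 and 8.47 against 10.17 to 13.58 (median 12.72). Raji was the lowest germinal-centre-derived line for both genes. CDK14, a cyclin-dependent kinase, had 9.98, 9.89 and 9.12 in ABC against 11.40 to 12.85, and LCMT2, a tRNA-modifying enzyme, 11.88, 10.10 and 10.65 against 12.70 to 14.13. The differences of the 4 genes were -4.05, -3.73, -2.55 and -2.52. ZNF347 (-2.70, a zinc finger protein), HDDC2 (-2.27, a nucleotidase) and KYAT1 (-2.26, a kynurenine aminotransferase) completed the named genes, with element 130012 (-2.74) as the unnamed one. Across these 7 genes the adjusted p ran between 0.0164 and 0.0458 (limma). Of 11 fits with a line left out, RGCC passed in 5, HDDC2 in 7, LCMT2 in 3 and KYAT1 in 2.

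The promoters of the called genes differed widely in CpG dinucleotides, the sites of DNA methylation. RefSeq promoter windows of 300 bases, 250 before and 50 after the gene start (GRCh38.p14), were matched for 19 of the 26 genes called in the treated arrays or in the response to the drugs. They held between 2 and 51 CpG (median 13, against 14 over 27305 promoters, of which 95.8% hold at least 1). The windows of CAPN2 (chr1:223701347-223701646, plus strand, 2 CpG) and MME (chr3:155079422-155079721, plus strand, 19 CpG) are shown because both genes differed before and after the drugs. The window of NANOS1 (chr10:119029464-119029763, plus strand, 51 CpG) is shown as that of a gene called only after them, and the window of PRAME (chr22:22559216-22559515, minus strand, 13 CpG) as that of a gene whose response differed. Of all promoters, 88.5% had at least as many CpG as CAPN2, 43.0% as many as MME, 1.03% as many as NANOS1 and 51.5% as many as PRAME. Capitals mark CpG, which reads the same on both strands. Each gene has 1 window here, and other starts of a gene were not looked at. Methylation of these windows was not analysed here.
CAPN2: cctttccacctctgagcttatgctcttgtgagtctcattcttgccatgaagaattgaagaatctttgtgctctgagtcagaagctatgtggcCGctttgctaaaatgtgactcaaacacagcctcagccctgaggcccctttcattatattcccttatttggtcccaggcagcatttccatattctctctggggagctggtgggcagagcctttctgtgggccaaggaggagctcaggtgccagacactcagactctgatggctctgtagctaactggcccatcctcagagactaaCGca
MME: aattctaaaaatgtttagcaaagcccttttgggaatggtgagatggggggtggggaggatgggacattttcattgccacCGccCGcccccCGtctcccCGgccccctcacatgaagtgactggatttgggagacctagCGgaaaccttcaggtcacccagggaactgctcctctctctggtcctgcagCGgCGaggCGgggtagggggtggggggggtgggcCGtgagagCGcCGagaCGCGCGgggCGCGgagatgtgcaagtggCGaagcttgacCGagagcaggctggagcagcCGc
NANOS1: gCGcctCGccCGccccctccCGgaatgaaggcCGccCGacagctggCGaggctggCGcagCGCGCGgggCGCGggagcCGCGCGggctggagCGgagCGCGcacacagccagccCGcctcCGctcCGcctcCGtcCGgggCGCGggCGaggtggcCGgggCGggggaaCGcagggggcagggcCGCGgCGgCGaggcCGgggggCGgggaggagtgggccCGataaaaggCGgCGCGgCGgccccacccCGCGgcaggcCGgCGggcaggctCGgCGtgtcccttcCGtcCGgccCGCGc
PRAME: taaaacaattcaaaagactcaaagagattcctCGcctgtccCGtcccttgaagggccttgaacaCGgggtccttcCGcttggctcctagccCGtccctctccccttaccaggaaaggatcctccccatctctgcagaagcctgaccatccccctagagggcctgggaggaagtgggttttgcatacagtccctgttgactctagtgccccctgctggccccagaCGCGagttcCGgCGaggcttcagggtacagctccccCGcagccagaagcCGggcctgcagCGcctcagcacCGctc

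Without the drugs the same comparison gave 155 elements (0.471%), 103 higher in ABC (0.313%) and 52 lower (0.158%). Of these 155, 16 were also called after the drugs in the same direction, 8 higher and 8 lower, which is 10.3% of the untreated calls and 64.0% of the treated calls. The 14 named ones were CAPN2, YES1, PLA2G4A, BCHE, IL2RB, KHDRBS3 and ABCG2, higher in ABC, and KCNK12, RGCC, LCK, MME, HLA-DOB, CDK14 and LCMT2, lower in ABC. Another 9 elements were called only in the treated arrays, among them STAT4, VWA5A, RASAL2, NANOS1, EXO5, ZNF347, HDDC2 and KYAT1. RASAL2 differed by 2.65 in treated and 0.57 in untreated lines, KYAT1 by -2.26 and -0.91, and NANOS1 by -4.56 and -2.91. For none of these 9 did the difference in response pass the threshold. The count of 16 was 8 without Ocily10, 27 without HLY-1, 8 without Ramos, 9 without Sudhl4 and 7 without ROS-50.

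Differences were smaller after the drugs in most of the untreated calls. The untreated values chose these elements, which favours large untreated differences, and the numbers are a description. The 103 elements higher in untreated ABC had a median difference of 1.89 in treated and 3.90 in untreated lines, and the 52 lower ones -1.95 and -3.30. Of the 155, 150 kept their sign, 146 were smaller and 78 kept at least 50% of their size. In the direction of the untreated call, 57 did not overlap between the treated groups, 31 higher in ABC and 26 lower. Over all elements, 1.01% did not overlap and were higher in treated ABC, and 1.07% lower. In the elements higher in untreated ABC, the median response to aza/TSA was -0.93 in ABC and 0.72 in germinal-centre-derived lines, whereas in the lower ones it was -0.09 in ABC and -1.41 in germinal-centre-derived lines. Among the 25 elements called in treated lines, which treated values chose, 12 were smaller in treated than in untreated lines. The 12 higher in ABC had a median difference of 3.58 in treated and 3.37 in untreated lines, and the 13 lower ones -2.83 and -2.93. Over all elements, differences of at least 4-fold numbered 614 in treated and 934 in untreated lines, and those of at least 16-fold 34 and 115. The median absolute difference was 0.38 in both, and the median SE was 0.47 in treated and 0.46 in untreated lines.

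**Figure D2:**
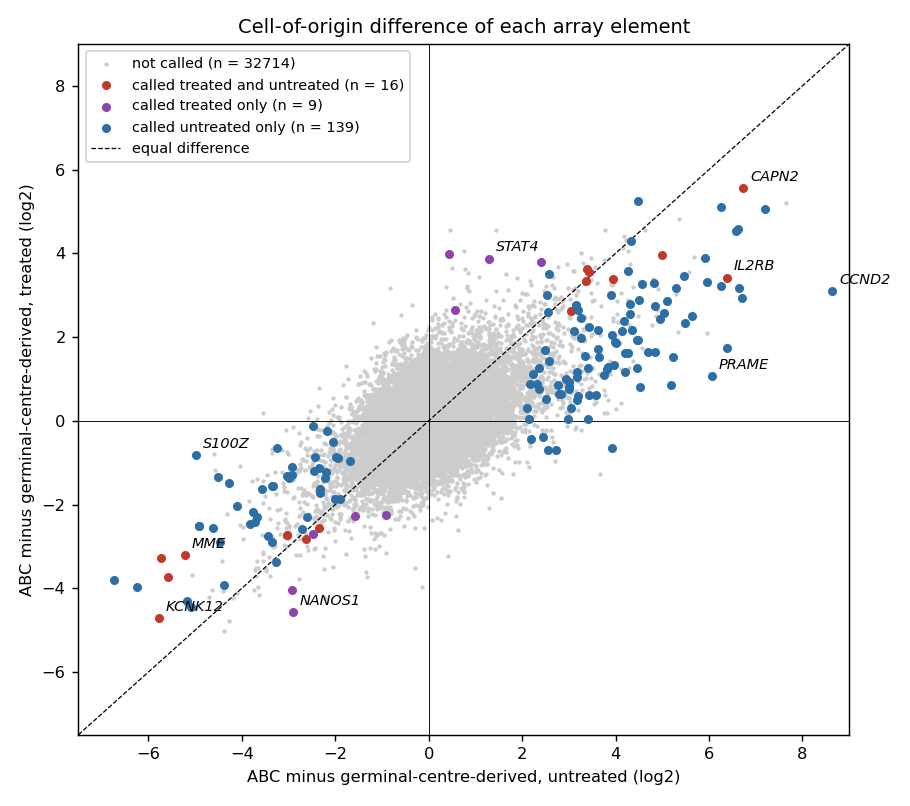
Difference between ABC and germinal-centre-derived lines (log2) for each element in treated lines (vertical axis) against untreated lines (horizontal axis), with calls in colour and the line of equal difference dashed. The 139 elements called only in untreated lines lie mostly between the horizontal axis and the dashed line, and the 9 called only in treated lines lie mostly beyond it.

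The genes called in untreated lines with the smallest differences after the drugs were looked at by name. S100Z was 1 of them, with -0.82 in treated and -4.99 in untreated lines, and its difference in response passed the threshold, as given below. For none of the others did the difference in response pass it. MDFIC, a regulator of transcription factors, had 11.48, 9.83 and 9.54 in treated ABC against 9.43 to 10.96 in treated germinal-centre-derived lines, a difference of 0.03, against 3.41 in untreated lines (adjusted p = 0.0322 from limma). APOL1, an apolipoprotein of innate defence, differed by 0.31 in treated and 3.04 in untreated lines, TLX2 by 0.03 and 2.15, SLC47A1 by 0.51 and 2.52, and PDE3A by -0.40 and 2.44. In the lower direction, the G1 cyclin CCND3 differed by -0.26 in treated and -2.17 in untreated lines. BCL6, the master regulator of the germinal centre reaction, had 13.62, 13.48 and 11.96 in treated ABC against 13.48 to 14.97 (median 14.08), a difference of -1.12 (adjusted p = 0.497), against -2.92 in untreated lines (adjusted p = 0.0218 from limma). STK17B and CLHC1 differed by -0.90 and -0.87 in treated lines and by -1.94 and -2.42 in untreated lines.

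The change in the difference was tested directly on the response of each line, treated minus untreated. It passed the threshold for 4 elements (0.0122%), 2 with a higher (0.00608%) and 2 with a lower response in ABC (0.00608%), and all 4 had been called in untreated lines. The count was 10 without Raji, 1 without HLY-1 (2424 elements at an unadjusted p under 0.05), 2 each without K422, Sudhl4 or ROS-50, and 0 without Ocily10 (2199 elements at an unadjusted p under 0.05). With the signal set as a term it was also 0, with 2246 elements at an unadjusted p under 0.05. The element called without HLY-1 was not among the 4 called with all lines.

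PRAME, a cancer-testis antigen, was above the array median in ABC lines with and without the drugs, and all germinal-centre-derived lines had more signal with them than without. Treated ABC lines had 15.19, 16.33 and 14.64 and untreated ABC lines 14.58, 17.27 and 15.12. Treated germinal-centre-derived lines had 12.14 to 15.89 (median 14.36) and untreated ones 8.53 to 11.05 (median 9.32). The mean response was -0.27 in ABC and 4.72 in germinal-centre-derived lines, a difference of -5.00 (adjusted p = 0.00788 from limma), and all 8 germinal-centre-derived responses (3.12 to 5.87) were above all ABC responses. Between treated groups PRAME differed by 1.06 (adjusted p = 0.691).

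CCND2, a D-type cyclin that drives entry into the cell cycle, had responses of opposite sign in the groups. Treated ABC lines had 14.76, 13.42 and 13.66 and untreated ABC lines 17.20, 17.21 and 16.82. Treated germinal-centre-derived lines had 8.94 to 12.72 (median 10.73) and untreated ones 7.54 to 11.04 (median 8.06). All 3 ABC responses were negative (mean -3.13) and all 8 germinal-centre-derived responses positive (mean 2.41). The difference in response was -5.54 (adjusted p = 0.0316 from limma). After the drugs the groups still did not overlap, with a difference of 3.10 (adjusted p = 0.15) against 8.64 in untreated lines.

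S100Z and GFOD1 had the higher response in ABC. S100Z, a calcium-binding protein of the S100 family, had 8.55, 10.24 and 9.42 in treated and 7.27, 8.78 and 7.67 in untreated ABC lines, and 7.73 to 11.13 (median 10.75) in treated and 10.68 to 14.36 (median 13.06) in untreated germinal-centre-derived lines. Its mean response was 1.50 in ABC and -2.67 in germinal-centre-derived lines (difference 4.17, adjusted p = 0.00663 from limma). Among the ABC arrays only treated Ocily10 had S100Z above the array median. With signals floored at the 25th percentile the difference in response was 3.26 (adjusted p = 0.0392 from limma). GFOD1 had a mean response of 2.43 in ABC and -0.36 in germinal-centre-derived lines (difference 2.79, adjusted p = 0.0316 from limma). Its signal was 12.65, 11.62 and 10.60 in treated and 10.63, 8.65 and 8.30 in untreated ABC lines. Germinal-centre-derived lines had 12.2 to 13.7 when treated and 12.3 to 14.5 when untreated. IL6R, the interleukin-6 receptor, was just outside the threshold (-2.97, adjusted p = 0.0509). Its signal was 10.10, 9.68 and 9.52 in treated ABC lines, below the array median, and 13.13, 12.39 and 12.79 in untreated ABC lines.

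**Figure D3:**
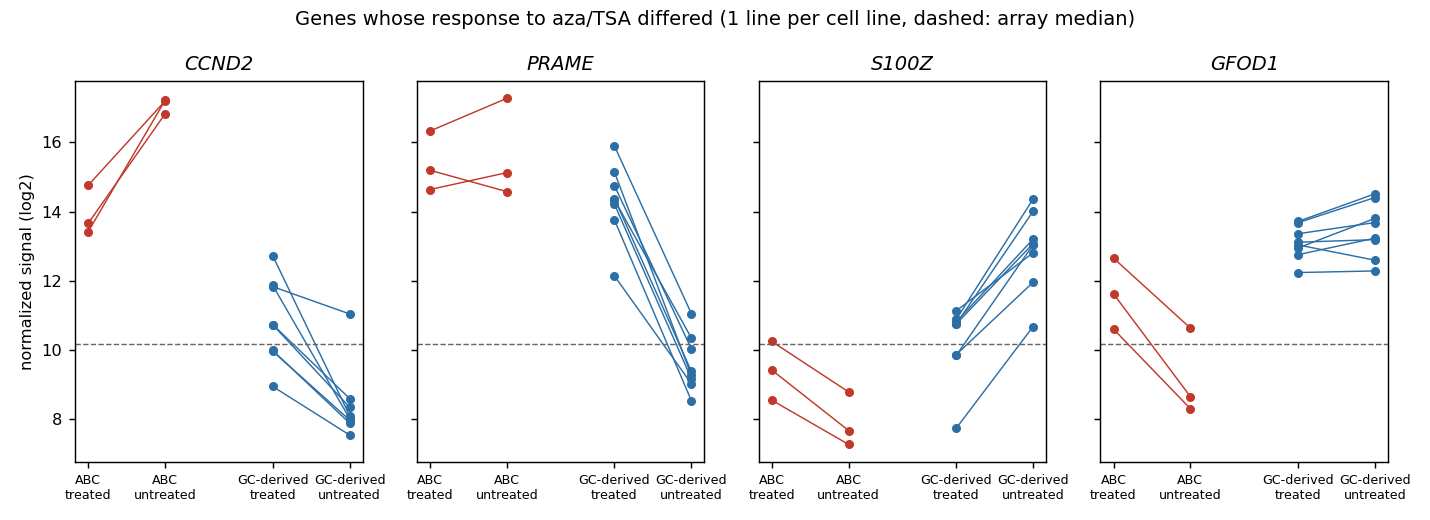
Normalized log2 signal of CCND2, PRAME, S100Z and GFOD1 in treated and untreated cultures, ABC lines in red and germinal-centre-derived (GC-derived) lines in blue, with 1 connecting line per cell line and the array median of 10.18 dashed. The PRAME values of the 8 germinal-centre-derived lines lie between 12.14 and 15.89 when treated and between 8.53 and 11.05 when untreated, while the ABC values lie between 14.58 and 17.27 over both conditions.

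The genes of the Lymph2Cx classifier, with which cell of origin is assigned in the clinic, were followed as a group. None of the 8 measured ABC genes passed the threshold in treated lines, and none did in untreated lines. Their median difference was 1.27 in treated and 3.45 in untreated lines, against -0.02 in treated lines over all elements. IRF4, a transcription factor of activated B cells and plasma cells, was the only one whose treated groups did not overlap (1 of 8, against 1.01% of all elements). It had 15.15, 14.49 and 15.10 in ABC against 10.09 to 13.84 (median 12.46), a difference of 2.65 (SE 0.72, adjusted p = 0.274). PIM2, a survival kinase, had 13.29 in Ocily3 against 16.76 and 16.70 in Ocily10 and HLY-1, and 11.75 to 15.45 in germinal-centre-derived lines (difference 2.05). CREB3L2, a transcription factor anchored in the endoplasmic reticulum, had 16.20, 16.23 and 14.83 in ABC, and its germinal-centre-derived values ran between 9.22 and 16.18 (difference 2.32). TNFRSF13B, the receptor TACI, differed by 0.65 in treated and 3.59 in untreated lines, LIMD1 by 0.54 and 3.15, RAB29 by 0.44 and 3.58, CCDC50 by 1.90 and 3.32, and CYB5R2 by -0.20 and 0.34. All 8 had a lower mean response in ABC than in germinal-centre-derived lines, with differences between -3.14 and -0.54, and 0 of 8 passed the threshold for the response. Of the 7 GCB genes of the classifier 4 were measured. MME was lower in ABC, as given above. ITPKB, an inositol phosphate kinase, differed by -1.03, ASB13 by -0.59 and S1PR2, the receptor that holds B cells in the germinal centre, by 0.43, and these 3 overlapped between groups.

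**Figure D4:**
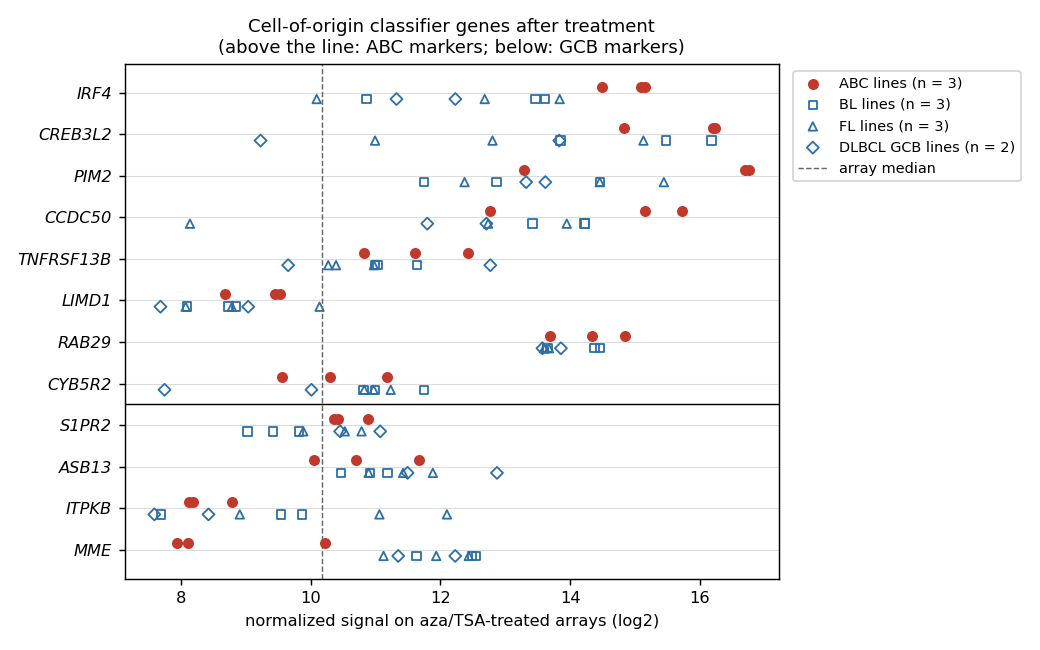
Normalized log2 signal (horizontal axis) on treated arrays of the 8 ABC genes (above the solid line) and the 4 GCB genes (below it) of the Lymph2Cx classifier, with ABC lines as filled red circles, germinal-centre-derived lines as open blue symbols and the array median dashed. IRF4 and MME are the 2 genes whose groups do not overlap.

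Among 24 measured further germinal centre genes, 21 were lower in treated ABC on average and 0 passed the threshold, with a median difference of -1.21 in treated and -1.71 in untreated lines. VPREB3, a chain associated with the pre-B-cell receptor, had 9.90, 8.66 and 11.83 in ABC against 13.19 to 15.82 (median 13.69), a difference of -3.98 (adjusted p = 0.0525). STAP1, an adaptor of B-cell signalling, had 10.60, 13.68 and 11.09 against 14.06 to 17.10 (median 15.87), a difference of -3.91 (adjusted p = 0.0525). ELL3 and MARCKSL1 also did not overlap, which makes 4 of 24. Without overlap and lower in ABC were 1.07% of all elements and 190 of 15461 named genes. This list and the others were chosen with earlier results of these data known, so such shares are a description. Among 21 measured further ABC genes, 17 were higher on average and 0 passed, with a median of 0.54 in treated and 1.78 in untreated lines. CD44, the hyaluronan receptor, had 17.25 in Ocily3, 15.38 in Ocily10 and 11.60 in HLY-1 against 8.23 to 12.18, a difference of 4.58 (adjusted p = 0.17), and HLY-1 lay within the range of the germinal-centre-derived lines. BATF, an AP-1 factor, had 12.58, 11.38 and 11.54 against 8.04 to 10.89 (adjusted p = 0.196), with no overlap.

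Pathways tied to the ABC type had smaller medians in treated than in untreated lines, described here without a test. Of 33 NF-kB target genes, 27 were higher in treated ABC on average and 0 passed the threshold, with a median of 0.56 in treated and 1.63 in untreated lines. Interleukin 6 (IL6) had 10.65, 9.13 and 14.34 in ABC against 7.88 to 9.51, a difference of 2.77 (adjusted p = 0.3). Of 23 JAK-STAT3 and cytokine genes, 20 were higher on average and 1 passed, IL2RB (against 0.0365% of all elements called higher), with a median of 0.56 in treated and 1.56 in untreated lines. Of 16 plasma cell genes, 13 were higher and 3 lower on average and 0 passed (median 0.49 in treated and 0.95 in untreated lines). After IRF4, the highest differences were those of TNFRSF17 (1.70, adjusted p = 0.495), the receptor BCMA, and PRDM1 (1.34, adjusted p = 0.564), which encodes BLIMP-1. The lowest were those of CD27 and JCHAIN. CD27, a receptor of memory B cells and plasma cells, was below the array median in ABC (8.95, 8.19 and 8.21) against 9.91 to 13.80 (difference -3.81, adjusted p = 0.077). JCHAIN, which links immunoglobulin polymers, had 7.90, 11.03 and 16.52 in ABC, and HLY-1 alone lay within the range of 13.38 to 17.96 (difference -3.69, adjusted p = 0.448).

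HLA class II proteins present peptides to helper T cells. All 11 measured genes were lower in treated ABC on average, 1 passed the threshold (HLA-DOB, against 0.0395% of all elements called lower), and the median was -2.12 in treated and -1.98 in untreated lines. The ABC lines did not behave alike. HLA-DRA, the alpha chain of HLA-DR, had 17.27 in Ocily3 and 16.40 in HLY-1 but 8.36 in Ocily10, below the array median, against 17.04 to 18.77 in germinal-centre-derived lines. HLA-DQA1 had 12.59, 8.18 and 12.05 against 12.14 to 16.93. HLA-DMA, which loads peptides, did not overlap between groups, with 13.65, 13.97 and 13.76 against 14.58 to 16.39 (difference -1.63, adjusted p = 0.251). CIITA, the master regulator of these genes, differed by -0.03. Of 20 proximal B-cell receptor genes, 15 were lower on average and 0 passed (median -0.55 in treated and -0.26 in untreated lines). BLK, a SRC-family kinase of B cells, differed by -2.39 (adjusted p = 0.246) and PRKCB by -2.31 (adjusted p = 0.395). HLY-1, with its low CD79A, CD79B and CD22, counts among the 3 ABC lines of these lists.

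**Figure D5:**
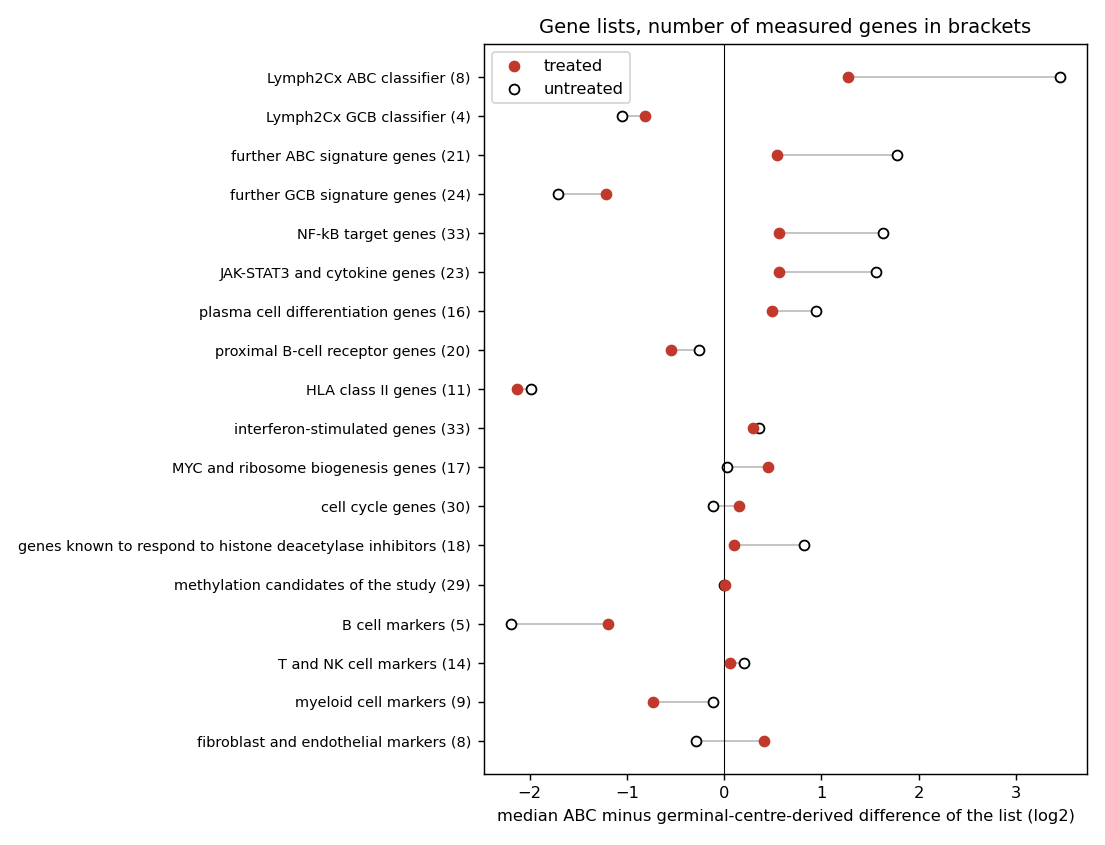
Median difference between ABC and germinal-centre-derived lines (log2) over the measured genes of each list, in treated (filled red) and untreated (open) lines, with the number of genes in brackets. The Lymph2Cx ABC list has 1.27 in treated and 3.45 in untreated lines, and the HLA class II list -2.12 and -1.98.

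No gene of the other lists passed the threshold in treated lines. The median over all elements was -0.02 in treated and -0.04 in untreated lines. The list median in treated lines was 0.30 for 33 interferon-stimulated genes (0.35 in untreated lines), 0.45 for 17 MYC and ribosome biogenesis genes (0.03), 0.16 for 30 cell cycle genes (-0.11), 0.06 for 14 T and NK cell markers (0.20), -0.73 for 9 myeloid markers (-0.12) and 0.41 for 8 fibroblast and endothelial markers (-0.29). The 5 B-cell markers had -1.19 in treated and -2.19 in untreated lines. For 18 known target genes of histone deacetylase inhibitors it was 0.10 in treated and 0.82 in untreated lines. H2BC21, a histone H2B gene, had 16.73, 16.61 and 16.56 in treated ABC against 12.76 to 15.21 (difference 2.59, adjusted p = 0.0578) and 11.74, 11.90 and 11.49 in untreated ABC against 8.70 to 9.99. Its mean response was 4.92 in ABC and 4.88 in germinal-centre-derived lines. NPTX2, a neuronal pentraxin, had 13.72 in Ocily3 but 8.81 and 8.62 in Ocily10 and HLY-1, against 11.74 to 15.90 (difference -3.23, adjusted p = 0.384). The 29 measured methylation candidates of the study, chosen in part for their response on these same arrays and so no independent evidence of direction, had a median of 0.00 in both. GNG7, a G-protein subunit, had 10.39, 9.52 and 15.96 in ABC against 13.61 to 16.29, and NR4A2, a nuclear receptor, 13.72, 11.82 and 11.67 against 7.57 to 12.23. CDKN2A, the p16 inhibitor of the cell cycle, had 8.94 and 8.37 in Ocily3 and Ocily10 but 14.17 in HLY-1, against 13.26 to 15.81 (difference -4.07, adjusted p = 0.17).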

How the data were processed

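Established lymphoma cell lines were profiled on Applied Biosystems Human Genome Survey Microarrays, 1 array per line and condition. The authors deposited the intensity of each element and a table of log2 values. The table equals the log2 of the deposited intensity after quantile normalization between arrays (largest difference 5.0e-09). The labels name Trizol and a NanoAmp kit, whereas the methods of the study name other kits.

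No filter on dim elements was applied. Gene names came from the annotation of the platform (17073 with 1 symbol, 139 with several, 15666 unnamed here), and the brightest element over 22 arrays stands for a gene. Treated arrays, untreated arrays and the per-line differences (treated minus untreated, paired because both cultures come from 1 line) were each fitted with limma 3.58.1 in R 4.3.3 (lmFit, eBayes, Benjamini-Hochberg at 0.05 over all elements, two-sided). The script was tested on simulated data. The number of arrays limits the precision.

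Named genes are the measured classifier genes, up to 10 detected genes with the largest difference per direction past the threshold (filled up by smallest p among non-overlapping ones), up to 2 per list and direction (with none past it, the 2 largest as values), 5 per direction whose call was smallest on the other side of treatment, and the 5 smallest p in response. The other genes given were chosen after their values were seen. The 18 lists hold 327 entries, 303 of them measured. Members and lists were chosen with earlier results of these data known. Alternatives were other normalizations, filters, a variance trend, array weights, the signal set as a term, subsets by medium, signal set and lymphoma type, the mean over elements, and each line left out.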

Additional observations from a re-analysis of the deposited data

Results flagged for a closer look

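Of 71 named genes, 7 had a treated germinal-centre-derived line far from the other 7. The lowest values that stood apart were those of CYB5R2 in Sudhl4 (7.74, next 10.01), CCDC50 in K422 (8.13, next 11.80), EXO5 in Raji (10.94, next 12.71), RGCC in Raji (10.17, next 11.98) and S100Z in Raji (7.73, next 9.84). The highest were those of MPO, a myeloid peroxidase, in Ramos (13.81, next 9.65) and of APOL1 in Sudhl4 (10.60, next 9.48). Chance marks about 1 group in 20. Raji was the line in 3 of the 7 genes and Sudhl4 in 2. Before normalization K422 had the highest 75th percentile of the signal (15058, next 8601).

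In 4 genes the response to aza/TSA differed between ABC and germinal-centre-derived lines by the test of the difference itself. The differences were -5.54 for CCND2, 4.17 for S100Z, -5.00 for PRAME and 2.79 for GFOD1. Over 18 alternatives PRAME and S100Z passed the threshold in 14 each, CCND2 in 9 and GFOD1 in 5. None of these genes passed with the signal set as a term, without Ocily10 or without HLY-1. In these fits the differences were -4.86, -4.66 and -4.89 for PRAME and 4.3, 4.19 and 4.04 for S100Z. PRAME and S100Z passed without Ocily3, with differences of -5.44 and 4.28. Each fit without an ABC line has fewer replicates, so passing or not does not show which line a call rests on. The differences with Ocily3 as the only ABC line are given below. What underlies these values was not tested.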

How the results depend on the processing

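After the drugs, 12 elements were higher and 13 lower in ABC. These numbers were 3 and 21 with no normalization, 11 and 18 with median scaling, 23 and 28 among detected elements, 21 and 21 with a variance trend, 3 and 2 with the signal set as a term, 149 and 66 for HLY-1 against the lines in RPMI, and 3 and 2 against FL lines. Floored signals gave 8 lower, and Ocily3 against 7 lines of the other signal set gave 3 lower. They were 0 and 0 against BL lines (2203 elements at an unadjusted p under 0.05), against DLBCL GCB lines (1686) and for HLY-1 and Ocily10 against Sudhl4 (1852). With 1 ABC line, that line is assumed to vary like the others. With all 22 arrays and the line as a random replicate block (correlation 0.396) there were 33 and 30. Of the 25 elements called, 22 were called with median scaling, 13 with no normalization, 3 with the signal set as a term and 23 with the block. Of the same 25, 18 were called without Ocily3, 5 without Ocily10, 13 without HLY-1 and 3 against FL lines. A larger count therefore need not hold the same elements. All 25 kept their sign under each of these alternatives. The non-overlapping groups fix the sign wherever the same normalized values are compared, whether lines are left out, subset, weighted or floored. It could change only with no normalization, with median scaling or with the signal set as a term.

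In untreated lines 103 elements were higher and 52 lower, with 52 higher under no normalization and 41 and 22 with the signal set as a term. The response count of 4 was 12 among detected elements, 12 with floored signals, 32 with a variance trend and 0 with the signal set as a term. The 16 elements called with and without the drugs numbered 27, 8, 27 and 1 in the same order. Ocily3 against 7 lines was chosen after seeing the data and has 1 ABC line. Its differences in response were -4.89 for CCND2, 3.87 for S100Z, -4.04 for PRAME and 2.36 for GFOD1. With 1 line left out, the counts ranged from 5 to 40 (higher) and 8 to 37 (lower) in treated lines, 55 to 187 and 33 to 77 in untreated lines, 0 to 10 for the response and 7 to 27 for calls in both. Untreated counts were 55 and 33 without Ocily10, and 187, 67 and 60 higher without HLY-1, BL41 and ROS-50. The causes were not tested.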
